A study of Mus musculus with 8 samples.

Results

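The genes described here are 10 genes of follicular regulatory T cells (Tfr cells), chosen by symbol from the 24453 genes of the deposited expression table: Cxcr5, Bcl6, Il21, Sh2d1a, Cd200, Tox, Tox2, Ascl2, Pou2af1 and Slamf6. All 10 were in the table, and all 10 passed the filter on low values (2 or more libraries with a value of 1 or higher), which kept 15547 genes. RNA came from mouse T cells sorted as positive for CD4 and for Foxp3. There were 3 libraries of the T143 line, 2 of the T138 line and 3 of wild-type (WT) mice, 8 in all. T143 and T138 are lines made by somatic cell nuclear transfer, in which a T cell nucleus placed in an egg gives rise to mice, so the rearranged receptor genes of each line go back to 1 cell. The series' text presents T138 as a model of naturally occurring regulatory T cells (Treg cells) and T143 as one with signs of agonist-induced development. Every library, WT included, carries the strain label NOD-Foxp3GFP-Rag1-/-, which names the NOD background, a green fluorescent Foxp3 reporter and a Rag1 deletion. If WT mice did not carry the deletion, which the labels alone cannot settle, Rag1 genotype and line cannot be told apart in the comparisons with WT. No treatment was given, and age is not stated in the labels. The labels do not say whether replicates are separate animals, so p-values measure the spread between libraries, which may be technical.

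Tfr cells are Foxp3-positive T cells that enter B cell follicles and restrain the germinal centre reaction. They share much of their programme with follicular helper T cells (Tfh cells), including the chemokine receptor CXCR5, which guides cells towards the follicle, and the transcriptional repressor BCL6, without which neither cell type forms. Tfh cells make interleukin-21, which acts on B cells, whereas Tfr cells are known to make little of it. Bulk RNA cannot tell fewer cells of a type from less RNA per cell, and this holds for every value below.

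Values are normalised read counts, gene reads that the authors scaled to the same total in every library. Recovered depth ran from 7.83 to 12.6 M reads in T143, 15.84 to 18.41 in T138 and 14.64 to 22.64 in WT, and 3 reads, the floor that a count of 0 allows, stood for a value between 2.07 and 5.97. Foxp3, a gene of the sort, was at 3920, 6299 and 8694 in the T143 libraries, 41854 and 41161 in those of T138, and 29773, 36362 and 35360 in those of WT, so the T143 libraries lay below all others. Cd4 was at 10922 to 15941 in T143, 12235 to 12820 in T138 and 14770 to 17655 in WT. Xist, transcribed in females, was at 19143 to 24992 in T143, at most 2.95 in T138 and at most 129.9 in WT, and the Y-linked gene Ddx3y was at most 1.27 in T143 and at least 2094 elsewhere, so sex cannot be told apart from line in comparisons with T143. The source names of T143 replicate 1 and WT replicate 1 point to T138 and T143 mice; both libraries lay with the group of their titles in these sex-linked genes.

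Relative to transcript length, the 10 genes spanned a wide range in WT cells. Slamf6 averaged 174 ± 35 reads per kilobase and per M reads (RPKM; SD, n = 3), Sh2d1a 84.8 ± 9.999, Cd200 54.1 ± 6.08, Tox 34.2 ± 5.15, Cxcr5 34.1 ± 6.22, Bcl6 18.5 ± 1.81, Tox2 10.7 ± 5.46, Pou2af1 5.85 ± 1.02 and Il21 1.08 ± 0.698. Tox and Cxcr5 lay within each other's spread, and the mean of Pou2af1 lay within that of Tox2. Ascl2, at 0.255 ± 0.258, was close to the limit of detection. On the same scale Slamf6 averaged 95.3 ± 26.9 in T143 and 177 ± 11.96 in T138 and was the highest of the 10 there too. Cxcr5 averaged 26.5 ± 25.2 RPKM in T143, a spread as wide as its mean, and 3.26 ± 0.79 in T138, below Bcl6 (7.95 ± 1.59) and Tox2 (4.39 ± 1.09), the SD ranges of Cxcr5 and Tox2 overlapping.

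**Figure D1:**
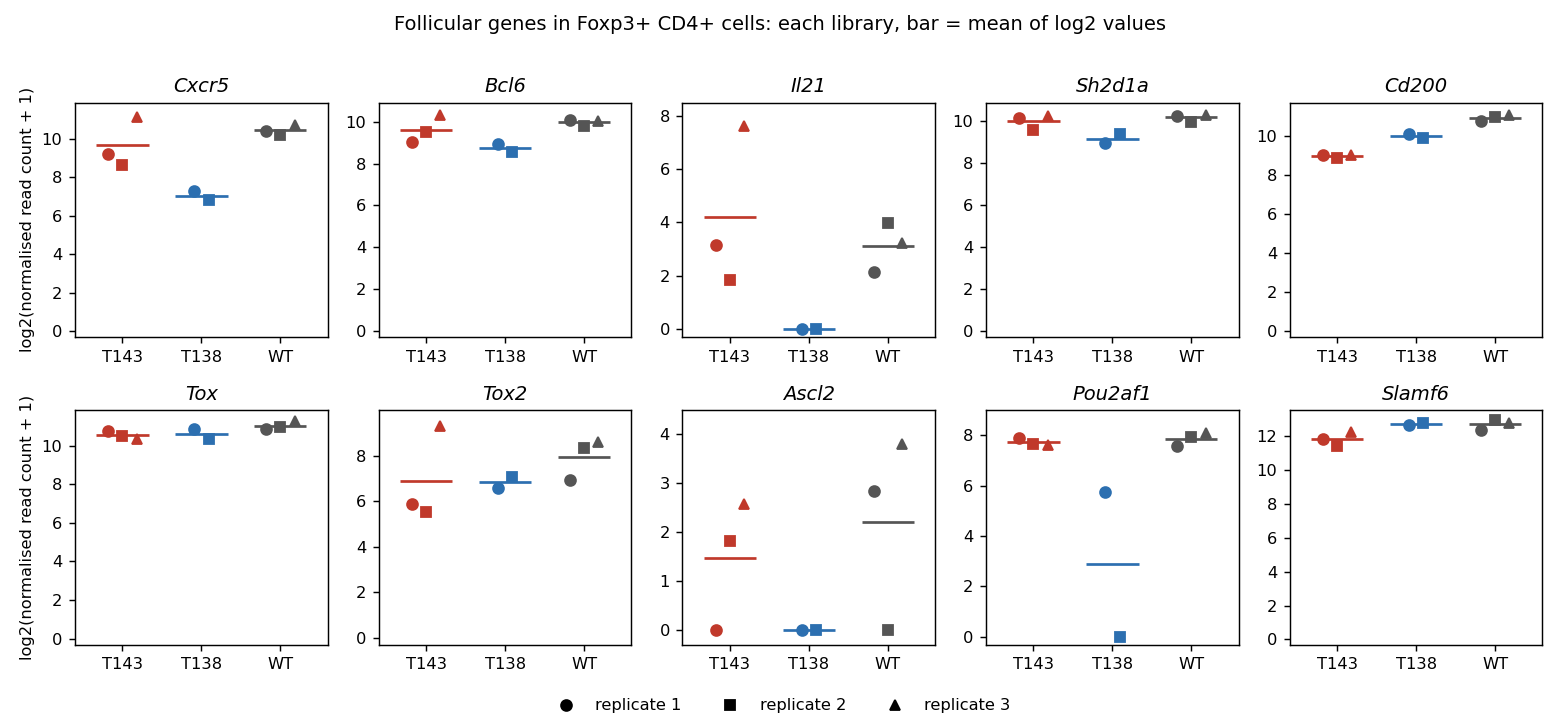
Each panel plots log2(normalised read count + 1) of 1 follicular gene in every library of T143 (red), T138 (blue) and WT (grey), with the replicate number as marker shape and the mean of the log2 values as a bar. Cxcr5 was lowest in both T138 libraries, Cd200 in all 3 T143 libraries, and Il21 and Tox2 were highest in T143 replicate 3.

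The first comparison set T143 against T138. Cxcr5, Sh2d1a and Pou2af1 were higher in T143, and Cd200 and Slamf6 were lower. Of the 10 genes 3 were called higher, against 10.8% of all 15547 genes tested, and 2 lower, against 10.2%, and 21% were called in either direction (limma, two-sided, Benjamini-Hochberg adjusted p under 0.05 over all genes tested). Without T138 replicate 2 the calls were 1 higher and 1 lower, with 1345 genes called in all rather than 3272, and without T138 replicate 1 they were 2 higher and 1 lower. With only these groups fitted they were 1 higher and 2 lower. The median log2 change was 0.86 over the 10 genes and 0.15 over all genes tested. In the same comparison the Treg marker Foxp3 fell (log2 change -2.79 ± 0.27 (SE), limma adjusted p = 0.000206).

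In T138 against WT every called follicular gene was lower in T138. Cxcr5, Bcl6, Sh2d1a, Cd200 and Pou2af1 fell, 5 of 10, where 5.3% of all genes tested were called lower and 11% in either direction. By limma 0 of 10 were called higher, against 5.74% of all genes tested, and 0 had an unadjusted p under 0.05 in that direction; edgeR and DESeq2 on recovered reads also called 0 higher. The median log2 change was -1.18 over the 10 genes and -0.06 over all genes tested. Foxp3 did not pass in this comparison (log2 change 0.30 ± 0.27, limma adjusted p = 0.542). The 5 lower calls became 2 in edgeR, where Sh2d1a and Cd200 passed, and 2 without T138 replicate 2, without WT replicate 1 or without WT replicate 3; they became 3 without T138 replicate 1 or without WT replicate 2.

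In T143 against WT, Cd200 and Slamf6 fell, 2 of 10, where 12.1% of all genes tested were called lower and 23.8% in either direction, so the count is not far from the background. Limma called 0 of 10 higher, against 11.7% of all genes tested, with 0 at an unadjusted p under 0.05 in that direction and 0 in edgeR and DESeq2. The median log2 change was -0.62 over the 10 genes and 0.05 over all genes tested. Without T143 replicate 3, 5 of 10 were lower, with Cxcr5 (log2 change -1.53, limma adjusted p = 0.00383), Tox2 (-2.25, 0.0159) and Bcl6 (-0.69, 0.04998) added. Without WT replicate 3 the count was 1. The 3 comparisons share libraries and are not independent.

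**Figure D2:**
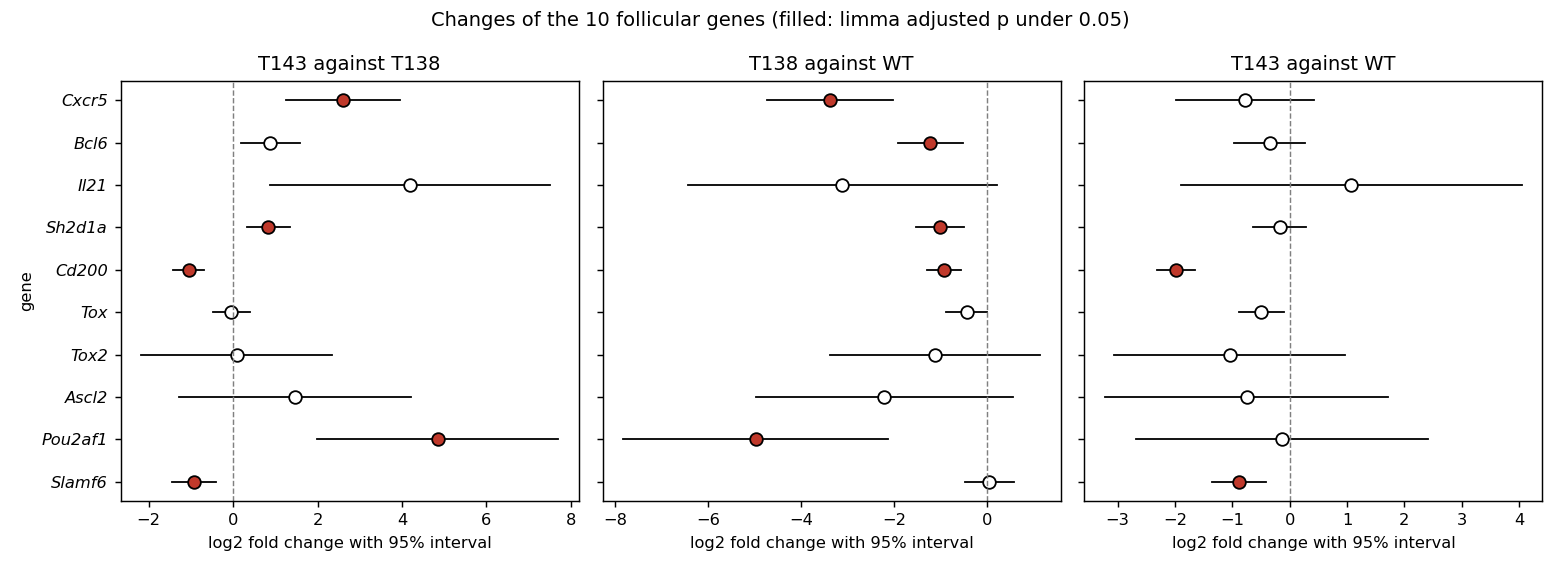
Log2 fold change of each follicular gene with its 95% interval from limma, in T143 against T138, T138 against WT and T143 against WT, with filled points for an adjusted p under 0.05. Each panel has its own horizontal scale. Intervals of Il21, Tox2, Ascl2 and Pou2af1 were wide, and those of Cd200, Slamf6, Tox and Sh2d1a narrow.

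Cxcr5, the receptor for the follicular chemokine CXCL13 (chromosome 9, 44511787 to 44526444, GRCm38), was at 585, 389 and 2261 in the T143 libraries, 156 and 110.1 in those of T138, and 1343, 1165 and 1665 in those of WT. Both T138 libraries lay below every other library, and T143 replicate 3 lay above all of them while its 2 companions lay below WT. The group means were 1079 ± 1029 in T143, 133 ± 32.1 in T138 and 1391 ± 253 in WT (SD, n = 3, 2 and 3). Cxcr5 was higher in T143 than in T138 by a log2 change of 2.61 ± 0.60 (limma adjusted p = 0.0153) and lower in T138 than in WT by a log2 change of -3.38 ± 0.60 (limma adjusted p = 0.00738). Neither call held in edgeR (adjusted p = 0.0618 and 0.0763) or without T138 replicate 2 (limma adjusted p = 0.0908 and 0.0538). For T143 against WT the change was -0.78 with a 95% interval of -1.99 to 0.43 and did not pass (limma adjusted p = 0.335).

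Bcl6, the repressor that defines follicular T cells (chromosome 16, 23965050 to 23988866), was at 533, 738 and 1285 in the T143 libraries, 499 and 375 in those of T138, and 1085, 902 and 1062 in those of WT. The T138 libraries again lay below all others, T143 replicate 1 being close to T138 replicate 1. The fall in T138 against WT was -1.23 ± 0.31 on the log2 scale (limma adjusted p = 0.0318), and it was lost in edgeR (adjusted p = 0.0653) and without any 1 of the T138 or WT libraries (limma adjusted p = 0.0545 to 0.205). For T143 against T138 the change of 0.88 ± 0.31 did not pass (limma adjusted p = 0.0705), though it did in DESeq2 (adjusted p = 0.0259) and without T143 replicate 1 (limma adjusted p = 0.021).

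Pou2af1 encodes OCA-B, a coactivator that binds the octamer factors OCT1 and OCT2 (chromosome 9, 51213690 to 51240079). It was at 237, 201 and 196 in the T143 libraries, 53.15 and 0 in those of T138, and 189, 241 and 268 in those of WT. T143 and WT libraries overlapped, and T138 lay apart with 54 reads in replicate 1 and none in replicate 2, where 3 reads would be a value of 2.54. The change was 4.84 ± 1.27 for T143 against T138 (limma adjusted p = 0.025) and -4.97 ± 1.27 for T138 against WT (limma adjusted p = 0.0353). Those sizes rest on the library at 0: without T138 replicate 2 they were 1.97 and -2.09. Both calls were lost without T143 replicate 2 (limma adjusted p = 0.0602 and 0.0541) and when only the groups compared were fitted (limma adjusted p = 0.0687 and 0.1), and the fall against WT without any 1 WT library (limma adjusted p = 0.0647 to 0.0857). Neither passed in edgeR (adjusted p = 0.132 and 0.177) or DESeq2 (adjusted p = 0.103 and 0.132). The sizes were smaller there, 3.01 and -3.105 in edgeR and 2.99 and -3.08 in DESeq2. For T143 against WT the change was -0.13 (95% interval -2.68 to 2.42). Its DNA-binding partner gene Pou2f2, which encodes OCT2, was at 406, 752 and 756 in the T143 libraries, 2092 and 1913 in those of T138, and 2555, 3771 and 3499 in those of WT, and fell in T143 against both T138 (-1.70 ± 0.27, limma adjusted p = 0.00209) and WT (-2.39 ± 0.24, limma adjusted p = 0.000159). The coactivator and the factor thus had different orders across the groups, lowest in T138 for Pou2af1 and in T143 for Pou2f2.

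Promoters of members were taken from RefSeq (GRCm38.p6), 250 bases before and 50 after the most upstream start listed; 7 of the 10 genes had one. Those of Bcl6, Pou2af1 and Il21 are shown as examples of genes at their lowest, or not detected, in T138. The choice is not complete, since Ascl2 had a promoter and 0 reads in both T138 libraries and is not shown. Bcl6 is at chr16:23988803-23989102 on the minus strand, Pou2af1 at chr9:51213440-51213739 on the plus strand and Il21 at chr3:37232587-37232886 on the minus strand. Capitals mark a match to one of 6 motifs searched on both strands.
Bcl6: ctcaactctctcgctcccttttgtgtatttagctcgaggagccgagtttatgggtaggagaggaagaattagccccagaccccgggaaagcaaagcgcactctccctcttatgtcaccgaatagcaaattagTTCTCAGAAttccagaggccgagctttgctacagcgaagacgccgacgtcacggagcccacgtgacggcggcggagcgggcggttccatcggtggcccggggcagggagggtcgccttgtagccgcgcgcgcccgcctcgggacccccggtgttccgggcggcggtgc
Pou2af1: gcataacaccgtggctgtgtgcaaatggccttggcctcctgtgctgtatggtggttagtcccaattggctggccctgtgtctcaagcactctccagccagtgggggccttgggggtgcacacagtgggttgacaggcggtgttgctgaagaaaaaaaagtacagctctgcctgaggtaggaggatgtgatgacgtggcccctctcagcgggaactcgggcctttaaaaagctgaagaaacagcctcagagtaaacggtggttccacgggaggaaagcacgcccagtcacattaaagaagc
Il21: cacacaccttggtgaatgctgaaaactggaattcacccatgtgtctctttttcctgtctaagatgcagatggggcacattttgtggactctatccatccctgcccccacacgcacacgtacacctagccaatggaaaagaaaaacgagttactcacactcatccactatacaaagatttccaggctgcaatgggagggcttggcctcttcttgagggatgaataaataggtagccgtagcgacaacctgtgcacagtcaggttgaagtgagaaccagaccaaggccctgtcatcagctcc
The motifs were CTTTGA (TCF and LEF factors), CAGCTG (an E-box of bHLH proteins such as ASCL2), ATGCAAAT (the octamer), TTCNNNGAA (a pair of half-sites used by STAT factors, which BCL6 motifs resemble), GTAAACA (FOXO) and TGANTCA (AP-1). Bcl6 held 1 match, TTCTCAGAA, which begins 118 bases before the start site, and 8.3% of the 32851 promoters in the table hold that motif. Among all such promoters 16% hold CTTTGA, 16.3% CAGCTG, 1.74% ATGCAAAT, 3.65% GTAAACA and 7.81% TGANTCA. The other 6 member promoters held none of these letters within their 300 bases.

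Tox and Tox2 encode HMG-box proteins, of which TOX is needed for CD4 T cell development and both are known to act in Tfh cells. Tox (chromosome 4, 6686353 to 6991557) was at 1721, 1458 and 1312 in the T143 libraries, 1829 and 1295 in those of T138, and 1869, 1989 and 2471 in those of WT. WT libraries lay above all others by small margins, and no comparison passed, with a change of -0.49 ± 0.18 for T143 against WT (limma adjusted p = 0.069) and an interval of -0.49 to 0.39 for T143 against T138. Median centring brought Tox in T143 against WT past the threshold (-0.62, limma adjusted p = 0.0448). Tox2 (chromosome 2, 163203058 to 163324172) was at 57.7, 45.8 and 634 in the T143 libraries, 94.5 and 135 in those of T138, and 119.8, 322 and 395 in those of WT. T143 thus held both the highest Tox2 library and the lowest ones. No Tox2 comparison passed with all libraries, and the 95% interval for T143 against T138 ran from -2.17 to 2.33. The related gene Tox4, expressed in many tissues, was higher in T143 than in T138 (log2 change 0.60 ± 0.17, limma adjusted p = 0.0274).

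Ascl2, a basic helix-loop-helix factor that can induce Cxcr5 in T cells, had 0, 2 and 4 reads in the T143 libraries, 0 and 0 in those of T138, and 9, 0 and 17 in those of WT (chromosome 7, 142966822 to 142969264). At this depth no difference was detectable.

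Sh2d1a encodes SAP, the adaptor that links SLAM family receptors to the kinase FYN and sustains contact between follicular T cells and B cells (chromosome X, 42502565 to 42522097). It was at 1144, 774 and 1224 in the T143 libraries, 492 and 671 in those of T138, and 1220.5, 1011 and 1269.95 in those of WT. T138 lay below every other library, whereas T143 and WT overlapped. The change was 0.84 ± 0.23 for T143 against T138 (limma adjusted p = 0.0281) and -1.01 ± 0.23 for T138 against WT (limma adjusted p = 0.0196). The rise in T143 over T138 was lost without any 1 of T138 replicate 1, T138 replicate 2, T143 replicate 1 or T143 replicate 3 (limma adjusted p = 0.0541 to 0.181), after median centring (limma adjusted p = 0.0572), with only these groups fitted (limma adjusted p = 0.0613) and with the replicate number as a block (limma adjusted p = 0.0544). The fall in T138 against WT was lost without T138 replicate 1, WT replicate 1 or WT replicate 3 (limma adjusted p = 0.0526 to 0.145).

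Slamf6 encodes Ly108, a SLAM family receptor that signals through SAP (chromosome 1, 171917458 to 171948958). It was at 3592, 2702 and 4781 in the T143 libraries, 6530.4 and 7186 in those of T138, and 5258, 7895 and 7126 in those of WT. Every T143 library lay below every other one, and T138 fell within the WT range. The change was -0.93 ± 0.24 for T143 against T138 (limma adjusted p = 0.0199) and -0.89 ± 0.21 for T143 against WT (limma adjusted p = 0.0129). The call against T138 was lost without T138 replicate 1, T138 replicate 2 or T143 replicate 2 (limma adjusted p = 0.0584 to 0.135), and that against WT without WT replicate 3 (limma adjusted p = 0.0541). Slamf6 in T138 against WT had a change of 0.04 with a 95% interval of -0.49 to 0.57. Sh2d1a was thus lowest in T138 and its receptor partner Slamf6 lowest in T143.

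The other SLAM genes and SAP partners were listed separately, with 11 of 13 tested. In T143 against T138, 3 fell, beside 10.2% of all genes tested, where Slamf1, the founding member, changed by -1.06 ± 0.21, Cd48 by -0.81 ± 0.18 and Ly9 by -0.72 ± 0.17. T138 against WT had 3 higher and 1 lower of 11, beside 5.74% and 5.3% of all genes tested, with Slamf8 at 156 and 246 in T138 and at most 0.76 in WT, Cd244 at a change of 2.98 ± 0.68, Cd48 at 0.71 ± 0.18 and Fyn, the lower one, at -0.91 ± 0.14. Slamf8 and Cd244 are genes of myeloid and natural killer cells. Summed myeloid and neutrophil markers were 96285 to 559048 in T143, 6254 to 26046 in T138 and 319 to 929 in WT. Natural killer and innate lymphoid markers summed to 1114 to 1966 in T143, 717 to 788 in T138 and 325 to 508 in WT. Dendritic cell markers summed to 5682 to 24214 in T143, 64341 to 85739 in T138 and 1151 to 1437 in WT. Slamf8 was at 35.8, 82.7 and 45.8 in the T143 libraries. The part of these cells in the Slamf8 and Cd244 values was not tested. T143 against WT had 2 higher and 3 lower, beside 11.7% and 12.1%, with Slamf8 at 5.44 ± 0.72, Cd244 at 2.06 ± 0.61, Slamf1 at -1.22 ± 0.19, Fyn at -0.71 ± 0.12 and Ly9 at -0.67 ± 0.15.

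Cd200 encodes a surface glycoprotein of Tfh cells and many other cell types that restrains cells carrying CD200R (chromosome 16, 45382111 to 45409060). It was at 515, 464.5 and 519.8 in the T143 libraries, 1108 and 974 in those of T138, and 1743, 2014 and 2184 in those of WT, so the 3 groups were ordered T143, T138, WT without overlap. Group means were 499.9 ± 30.7 in T143, 1041 ± 95.2 in T138 and 1980.5 ± 222 in WT (SD, n = 3, 2 and 3). The change was -1.06 ± 0.16 for T143 against T138 (limma adjusted p = 0.00195), -0.92 ± 0.16 for T138 against WT (limma adjusted p = 0.00572) and -1.98 ± 0.15 for T143 against WT (limma adjusted p = 3.32e-05). Only the T138 call against WT was lost under any alternative, without T138 replicate 2 (limma adjusted p = 0.06). Its receptor gene Cd200r1, expressed mainly by myeloid cells, went another way, at 424, 464.5 and 453 in the T143 libraries, 2699 and 2365 in those of T138, and 406, 460.1 and 398 in those of WT. Cd200r1 was higher in T138 than in WT (2.58 ± 0.17, limma adjusted p = 4.91e-05) and lower in T143 than in T138 (-2.50 ± 0.17, limma adjusted p = 2.41e-05). Summed dendritic cell markers were 5682 to 24214 in T143, 64341 to 85739 in T138 and 1151 to 1437 in WT, whereas summed myeloid and neutrophil markers were 96285 to 559048 in T143, 6254 to 26046 in T138 and 319 to 929 in WT. The part of these cells in the Cd200r1 values was not tested.

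Il21, which encodes the B cell helper cytokine (chromosome 3, 37222759 to 37232636), was at 7.96, 2.55 and 193 in the T143 libraries, 0 and 0 in those of T138, and 3.44, 14.9 and 8.36 in those of WT. One library, T143 replicate 3, carried 156 reads, whereas the other T143 libraries had 4 and 2 and those of WT 5, 14 and 11. Against the higher of the T138 floors per library, 2.95, its value was at least 65.4-fold higher. No comparison passed in limma, with an adjusted p of 0.0707 for T143 against T138, which passed without T143 replicate 2 (limma adjusted p = 0.0418) and in edgeR (adjusted p = 0.0472). The interval for T143 against WT was -1.89 to 4.04. The receptor gene Il21r fell in T143 against WT (-0.96 ± 0.11, limma adjusted p = 0.000385) and in T138 against WT (-0.76 ± 0.13, limma adjusted p = 0.004), with 3721 to 3993 in T143, 4375 and 4462 in T138, and 7065 to 7892 in WT.

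T143 replicate 3 stood apart from its companions in follicular genes, a pattern described after its values were seen and given without a test. Of the 10 genes, Cxcr5, Il21 and Tox2 lay over 2-fold above both other T143 libraries on the value + 1 scale with at least 3 reads, where 7.2% of all genes tested did. Among 18 genes listed as other follicular surface and secreted genes 9 did so: Pdcd1, Icos, Cd160, Ctla4, Il4, Il10, Cxcl13, Il1r2 and Cebpa. Of this list Cebpa encodes a transcription factor, not a surface or secreted protein. Cebpa was at 59.7, 172 and 559 in the T143 libraries, the order of their summed myeloid and neutrophil markers given below. It was at 77.8 and 55.0 in T138 and at 231, 176 and 346 in WT, where those sums were lowest. Pdcd1, the inhibitory receptor PD-1, was at 470, 262 and 1495 in T143, and the costimulatory receptor gene Icos at 1339, 988 and 4385. Pdcd1 of T143 replicate 3 lay inside its WT range (780 to 1746), with T138 libraries at 821 and 393. Icos of T143 replicate 3 was close to the highest WT library (4378), with T138 libraries at 3343 and 3918. Il10 (47.0) and Ctla4 (2978) of T143 replicate 3 stayed below every WT library (63.8 to 119 and 8760 to 9632). Il1r2, Cebpa, Il4, Cxcl13 and Cd160 of T143 replicate 3 lay above every WT library. Il1r2, a decoy receptor for interleukin-1 found on Tfr cells and also on neutrophils, was at 75.6, 86.5 and 1425 in the T143 libraries, 119.1 and 84.7 in those of T138, and 131, 58.6 and 228 in those of WT. Il4 was at 34.65 in that library and at 0 in the other T143 libraries, and Cxcl13 at 26.0 with 0 and 2.55 in its companions. Sh2d1a, Cd200, Pou2af1, Tox, Bcl6, Slamf6 and Ascl2 did not stand apart in this way.

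The same library had the highest Foxp3 of its group, 8694, and also the highest summed myeloid and neutrophil markers, 559048, against 96285 and 170895 in the other T143 libraries, 6254 to 26046 in T138 and 319 to 929 in WT. The part of these cells in the T143 replicate 3 values was not tested. Of 17 genes listed as antagonists of the follicular programme, 1 lay over 2-fold above both companions in that library and 1 below. Prdm1 was above, at 920 against 215 and 384. Ccr7, the lymph node homing receptor, was below, at 4451 against 13696 and 9909. Of 14 genes listed as inducers, 1 lay above and 2 below. Maf was above, at 2972 against 804 and 1033. Lef1 (3834 against 10126 and 8159) and Bach2 (1572 against 3218 and 3166) were below. Both lists thus moved in both directions.

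**Figure D3:**
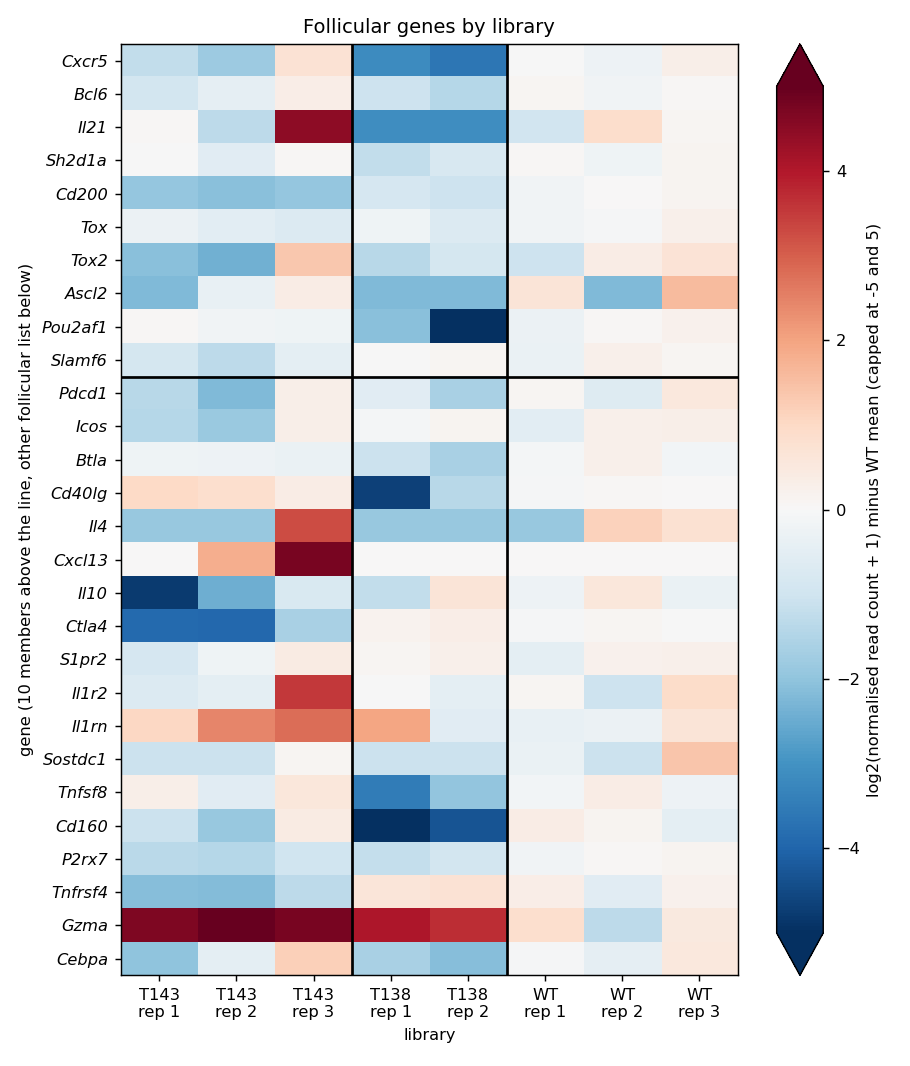
Colours show log2(normalised read count + 1) minus the WT mean for the 10 follicular genes (above the line) and the 18 genes listed as other follicular surface and secreted genes (below) in each library, capped at -5 and 5. Il21, Tox2, Il4, Cxcl13 and Il1r2 were above WT in T143 replicate 3, and Cxcr5 and Cd160 were below WT in both T138 libraries.

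A list of 14 genes drawn up as inducers of the follicular programme was next counted. Of these, 8 were higher in T143 against T138, beside 10.8% of all genes tested, and 6 were lower in T138 against WT, beside 5.3%. Both counts include Bach2, a repressor whose place among inducers was not tested. Tcf7, which encodes TCF1, an activator of Bcl6, was at 31927, 26669 and 18649 in the T143 libraries, 2338 and 2875 in those of T138, and 11398, 13166 and 13316 in those of WT, a change of 3.28 ± 0.21 for T143 against T138 and -2.28 ± 0.21 for T138 against WT. Il6st, the shared receptor chain for interleukin-6, changed by 2.07 ± 0.21 and -2.03 ± 0.21, and Bach2, a repressor of effector fate, by 3.07 ± 0.33 and -3.26 ± 0.33 in these comparisons. In T143 against WT 1 was higher and 3 lower, beside 11.7% and 12.1% of all genes tested, with Tcf7 higher (1.00 ± 0.19) and Irf4 (-1.25 ± 0.22), Nfatc1 (-0.40 ± 0.13) and Maf (-1.30 ± 0.42, limma adjusted p = 0.0486) lower. The median changes over the 14 were 0.50, -0.53 and 0.02 in the 3 comparisons, beside 0.15, -0.06 and 0.05 for all genes tested.

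Antagonists of the follicular programme moved in both directions. Of 17 genes 5 were higher and 4 lower in T143 against T138, 4 higher and 6 lower in T138 against WT, and 3 higher and 5 lower in T143 against WT. The shares of all genes tested called higher and lower were 10.8% and 10.2%, 5.74% and 5.3%, and 11.7% and 12.1% in these comparisons. Prdm1, which encodes BLIMP1, the mutual antagonist of BCL6, was at 215, 384 and 919.6 in the T143 libraries, 1612 and 1594 in those of T138, and 629.5, 652 and 756 in those of WT; it fell in T143 against T138 (-1.92 ± 0.46, limma adjusted p = 0.0171) and did not pass in T138 against WT (1.24 ± 0.46, limma adjusted p = 0.128). Il2ra, a chain of the interleukin-2 receptor whose signal opposes Bcl6, fell in T143 against T138 (-2.72 ± 0.19) and WT (-3.43 ± 0.17), and in T138 against WT (-0.71 ± 0.19). Klf2, which keeps cells out of follicles, was higher in T138 than in WT (0.85 ± 0.22, limma adjusted p = 0.0347). Id2, an inhibitor of E proteins, was at 2910.5 to 3455 in T143, 946 and 1198 in T138, and 552 to 604 in WT, and rose in T143 against both T138 (1.57 ± 0.16) and WT (2.43 ± 0.14). Ccr7 changed by 3.79 ± 0.42 for T143 against T138 and -2.67 ± 0.42 for T138 against WT.

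Among the 18 genes listed as other follicular surface and secreted genes, 4 were higher and 2 lower in T143 against T138, 1 higher and 5 lower in T138 against WT, and 1 higher and 3 lower in T143 against WT. Of all genes tested, 10.8% were higher and 10.2% lower in T143 against T138, 5.74% and 5.3% in T138 against WT, and 11.7% and 12.1% in T143 against WT, so the 2 lower and the single higher calls in the first pair of comparisons were at the background. Btla, an inhibitory receptor, was higher in T143 than in T138 (1.08 ± 0.19) and lower in T138 than in WT (-1.35 ± 0.19), the order also shown by Cd160, at 40.7 to 205 in T143, 0.98 and 6.77 in T138, and 109 to 197 in WT. Tnfsf8 (CD30 ligand) was higher in T143 than in T138 by 2.82 ± 0.44. Tnfrsf4 (OX40) fell in T143 against T138 (-2.53 ± 0.30) and WT (-1.87 ± 0.27), and P2rx7, a receptor for extracellular ATP, fell in T143 (-1.25 ± 0.15) and T138 (-1.05 ± 0.17) against WT. Gzma, a granzyme gene of cytotoxic cells, rose in T143 against WT (5.11 ± 0.65), where 5 of 8 natural killer and innate lymphoid markers, a list that holds Gzma, also passed as higher. Pdcd1 and Icos did not pass in any comparison with all libraries.

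Of 16 ligands, receptors and cofactors tested, 3 were lower in T143 against T138, 1 higher and 1 lower in T138 against WT, and 3 lower in T143 against WT. These counts were near the shares of all genes tested, 10.2% lower in T143 against T138, 5.74% higher and 5.3% lower in T138 against WT, and 12.1% lower in T143 against WT. Beside Cd200r1, Pou2f2 and Il21r these were Mta3, a cofactor of BCL6, lower in T143 than in T138 (-0.62 ± 0.17), and the deacetylase gene Hdac3, lower in T143 than in WT (-0.47 ± 0.14).

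B cells share Cxcr5, Bcl6, Pou2af1 and Cd200 with follicular T cells, so their markers are set beside these genes. Summed B cell markers, 14 of 17 listed genes being in the table, were 201 to 803 in T143, 1076 to 1480 in T138 and 522 to 1183 in WT. Cd22 made up most of the T138 sums, at 849 and 682, above its 256 to 433 in WT. Cd72 was also higher in T138 than in every WT library (232 and 227 against 84.1 to 205). Cd79b (112 and 44.0 against 128 to 314) and Cd79a (13.8 and 0 against 21.3 to 77.1) were lower in T138 than in every WT library. WT replicate 1 lay over 2-fold above both other WT libraries in 9 of the 12 B cell genes tested and in 0 of the 10 follicular genes. Of all genes tested 7.56% did so, so 0 of 10 is near the background. The part of B cells in the follicular values was not tested. Among defining B cell genes Ebf1 was at 0 in every library, Pax5 at 0 in all but WT replicate 1 (8.95), and Ms4a1 (CD20) at most 57.2 there and 2.48 elsewhere; Cd22 was the most abundant of the list. Of the 12 B cell genes tested 1 was lower in T143 against T138, beside 10.2% of all genes tested. In T143 against WT 2 were lower, beside 12.1%, so both counts were near the background. Plasma cell markers summed to 1485 to 2479 in T143, 1291 to 1961 in T138 and 2108 to 3998 in WT, mainly Xbp1, with Jchain at most 2.55 in T143, 5.91 in T138 and 1987 in WT. Germinal centre B cell markers, 6 listed, summed to 865 to 991 in T143, 698 to 872 in T138 and 1259 to 1405 in WT. Among them Fas, a death receptor gene that activated T cells also express, fell in T143 (-0.73 ± 0.22, limma adjusted p = 0.0382) and T138 (-1.44 ± 0.25, limma adjusted p = 0.00494) against WT. Gcsam was at 7.96, 20.4 and 21.0 in T143 and at 0 in every T138 and WT library, and passed as higher in T143 against T138 (limma adjusted p = 0.00956) and WT (limma adjusted p = 0.00451). Rgs13 was at 0 in every library. The defining T cell markers summed to 55565 to 91570 in T143, 65943 to 66558 in T138 and 71044 to 89068 in WT.

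**Figure D4:**
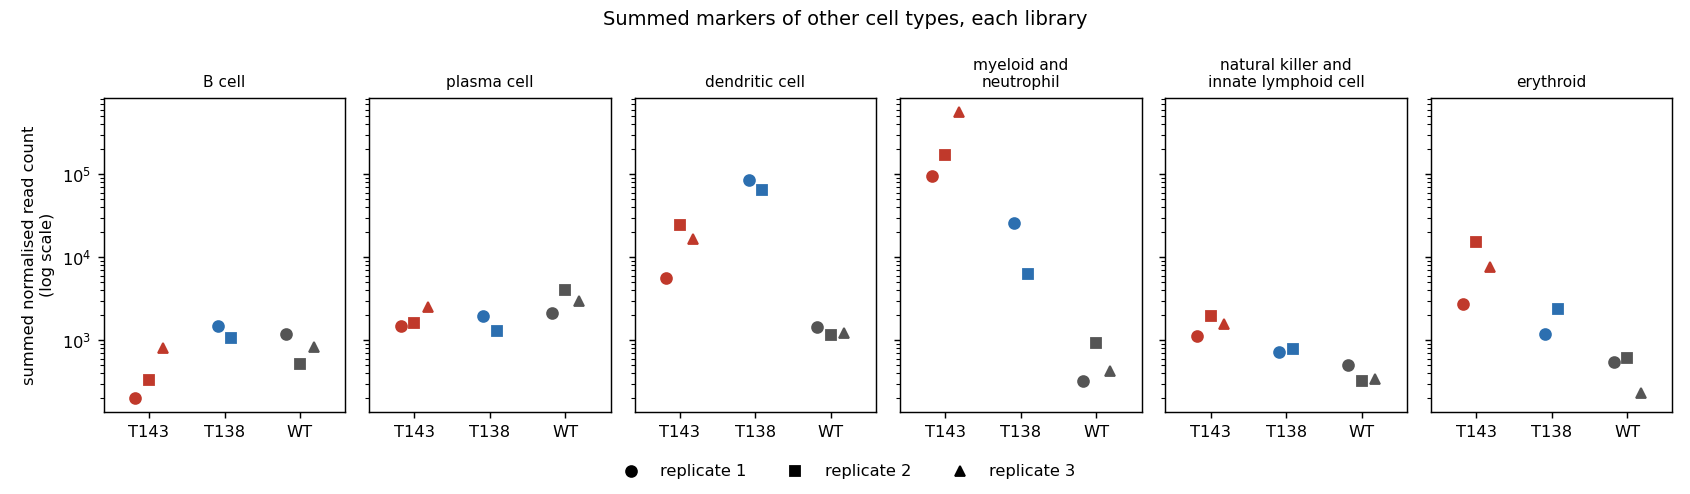
Summed normalised read counts of 6 marker lists of other cell types in each library of T143 (red), T138 (blue) and WT (grey), on a log scale. Dendritic cell markers were highest in T138, and myeloid and neutrophil markers in T143 with replicate 3 at 559048.

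For each of the 10 genes, the tested genes of at least median mean level with the most similar pattern were sought as the smallest root-mean-square difference of centred log2 values over the 8 libraries, leaving out predicted genes. For Cxcr5 these were Cst7, which encodes cystatin F (0.318), the transcription factor gene Myb (0.546) and D8Ertd82e (0.73), where Cxcr5 itself deviated from its mean by 1.51. Cst7 was at 183, 129 and 818 in the T143 libraries, 92.5 and 52.5 in those of T138, and 406, 404 and 705 in those of WT, so it too was highest in T143 replicate 3. Nearest to Tox2 were Icos (0.723), Gcnt1 (0.795) and Pdcd1 (0.812). Bcl6 was closest to Sipa1l2 (0.172), E2f3 (0.222) and Slc45a4 (0.26), and Cd200 to Zfp862-ps (0.173), Col20a1 (0.216) and Pou6f1 (0.234). Slamf6 had Wbp1 (0.179), Ampd2 (0.18) and Tmem154 (0.184) nearest, Sh2d1a had Psat1 (0.197), Arhgef3 (0.2) and Smarcb1 (0.206), and Tox had Pex6 (0.102), Calcoco1 (0.104) and Zfp157 (0.105). For Il21, Ascl2 and Pou2af1, whose values include zeros or few reads, the nearest genes were farther off, Cxcr5 for Il21 (1.31), Prnp for Ascl2 (0.928) and Myb for Pou2af1 (1.58).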

How the data were processed

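RNA of CD4-positive, Foxp3-positive sorted mouse T cells was sequenced with the TruSeq Stranded mRNA kit, per the labels' protocols. The authors deposited a signal per gene and library, gene read counts divided by a factor per library that gives every library a total of 15.59 M. Undoing that factor returned whole reads for 100% of values within 0.01. HOMER 4.8, STAR 2.5.2b, edgeR, CASAVA 1.8.2 and the build mm10 are listed, without role or order, per the submitters' processing notes. How counting treated strand and multi-mapped reads is not stated there.

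Groups followed the titles. All 8 libraries were fitted together with limma 3.58.1 (R 4.3.3) on log2(value + 1), with a mean-variance trend and robust moderation, because T138 has 2 libraries. Adding 1 shrinks fold changes of low genes, but averaging log2 values can enlarge them where a library is at 0. In T143 against T138 Pou2af1 changed by 4.84 here and 3.01 in edgeR, whereas Il21 changed by 4.20 and 9.16. Calls use a Benjamini-Hochberg adjusted p under 0.05 over 15547 genes. The procedure was tested on simulated counts, but the outcome is not reported here and no conclusion is drawn from it. edgeR 4.0.16 and DESeq2 1.42.0 were run on recovered reads. The 10 genes and the other lists were chosen with earlier results of these data known. All 10 genes are named, with up to 3 genes by smallest p from each pathway list and comparison, Foxp3 and Cd4, up to 3 markers of highest mean per cell type list as values, and the 3 most similar genes; Lef1, Maf, Prdm1, Klf2, Pdcd1, Icos and the genes named for T143 replicate 3, and other markers given as values, were chosen after their values were seen. Some genes that this rule would name are not reported here. Positions come from RefSeq (GRCm38.p6), the build of mm10, and lengths from GENCODE transcripts. Deviations of same-numbered T143 and WT libraries from their group means correlated at 0.35, 0.284 and 0.139, whereas those of T138 with T143 were -0.163 and 0.159; no label ties the numbers.

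Floors of 3 reads cover counting error only, since PCR copies cannot be told from separate molecules. Alternatives were the pseudocount, the filter, scaling, count tests, the replicate block, fits of only the groups compared, and leaving libraries out.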

Additional observations from a re-analysis of the deposited data

How the results depend on the processing

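With 1 library left out at a time, the count of follicular genes called ran from 2 to 5 in T143 against T138, 2 to 5 in T138 against WT and 1 to 5 in T143 against WT, and all genes called from 1345 to 3674, 757 to 1837 and 2460 to 3575. T143 against T138 had 3 follicular genes called when only these groups were fitted. Without T143 replicate 1 and WT replicate 1 together, the counts were 3 in T143 against T138 and 2 in T138 against WT. Without T143 replicate 3 and WT replicate 1 together, a setting chosen after seeing the data, they were 3 in T143 against T138 and 4 in T143 against WT. In edgeR T138 against WT had 2. The cause was not tested. Every change of sign concerned a change that had not passed with all libraries. Slamf6 in T138 against WT was -0.0011 after median centring and -0.13 under both settings without a pair of libraries, and -0.13 to 0.16 with 1 library left out. Tox2 in T143 against T138 was -0.0084 after median centring, -0.69 with the replicate block and -1.12 without T143 replicate 3 and WT replicate 1, and -1.12 to 0.76 with 1 left out. Under that same pair setting Tox in T143 against T138 was 0.042 and Il21 in T143 against WT -1.11; with 1 left out they ran from -0.30 to 0.20 and -0.63 to 2.26. Ascl2 in T143 against WT was 0.30 without T143 replicate 1 and WT replicate 1, and -1.86 to 0.043 with 1 left out, and Sh2d1a there -0.30 to 0.027. With the replicate number as a block, counts were 4, 5 and 2 follicular genes and 3109, 1804 and 3940 genes in all for T143 against T138, T138 against WT and T143 against WT. The block ended the Sh2d1a call in T143 against T138 and no other call of the 10 genes. After quantile normalization the median over all genes tested was 0.0136 rather than 0.152 in T143 against T138 and -0.0778 rather than 0.0528 in T143 against WT. Of 540 values of the 10 genes under alternatives, 464 kept direction and side of the threshold, 46 lost and 12 gained a call, and 18 changed sign. Depth limits Ascl2 and Il21.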
